A study of Mus musculus with 14 samples.

Results

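The 10 circadian clock genes Ciart, Clock, Arntl, Per1, Per2, Per3, Cry1, Cry2, Nr1d1 and Nr1d2 were followed in single mouse oocytes with and without Kdm1a, out of the 24064 genes of the count table. The set was built around Ciart, which was chosen on its measured values: it was near silent in control oocytes and present in mutant oocytes. Its values are therefore given as a description with no test. The other 9 genes make up the core clock, and the comparison asks whether they change together with Ciart.

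RNA-seq was made from 10 single oocytes. The 4 wt/wt oocytes (wt1, wt3, wt4 and wt5) came from C57BL/6J females with an intact Kdm1a, also named Lsd1, which encodes a histone demethylase. The f/f oocyte C3 carried the floxed (flox/flox) allele without a Cre on a mixed B6;129 background. The 5 mutants, labelled mko/mko and named D1, D2, D3, D4 and D7, carried the floxed allele on the same mixed background together with a Zp3-cre transgene, whose promoter is active in the growing oocyte and which removes the first exon of Kdm1a. Every floxed or mutant oocyte thus differs from wt/wt in strain, and the wt/wt libraries follow another naming series, so genotype, strain and series cannot be told apart between wt/wt and mutant oocytes. C3 alone shares the background of the mutants. The study gives an age only for the superovulated females from which embryos were taken, and for the oocytes no age of the females and no time of day of collection was found in the sources used here.

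The table held 1375187 to 6928548 counts per oocyte. Kdm1a had 27 to 669 counts in control and 0 to 10 in mutant oocytes. Each of the names C3, D3, D4 and D7 stands on 2 libraries, although the labels count these as separate oocytes. They were summed as libraries of 1 oocyte, and nothing in the labels says whether oocytes came from separate females, so p-values measure the spread between these oocytes. All 12 oocyte markers examined had counts, and 9 of them, or 75.0%, were called higher in mutants, beside 14.7% of all genes tested. Their summed level was 11040 to 29060 CPM (counts scaled to 1000000 per oocyte) in wt/wt, 47410 in f/f and 51580 to 106100 in mutant oocytes. Gdf9 alone made up 38321 CPM of the f/f sum. The f/f oocyte lay within the wt/wt range for Zp2, Zp3, Bmp15, Nlrp5, Nobox, Ooep and Npm2. It lay above that range for Zp1, Gdf9, Mos, Zar1 and Figla. Of 14 markers of cumulus and granulosa cells, among them Fshr, Amh and Foxl2, 8 had 0 counts in every oocyte. The summed level of this list was 20.6 to 79.0 CPM in control and 83.5 to 156.3 CPM in mutant oocytes, so that every mutant lay above every control. Cyp19a1 was called higher in mutants and made up the larger part of the sum in every oocyte but wt3 and wt5. Without that gene the sum was 8.21 to 26.0 CPM in control and 4.26 to 9.26 CPM in mutant oocytes. The part of these lists in the results below was not tested.

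The mammalian clock is a transcriptional feedback loop. CLOCK and ARNTL (also BMAL1) bind E-boxes in pairs and activate the Per and Cry genes, whose proteins return to the nucleus and repress that activation. In a second loop the nuclear receptors NR1D1 and NR1D2 (REV-ERBs) repress Arntl, and the ROR receptors activate it through the same sites. Ciart, also called Chrono or Gm129, encodes a repressor of CLOCK and ARNTL and is itself under E-box control in tissues with a running clock. Full-grown oocytes are largely silent in transcription, so their mRNA is in great part a store laid down during growth.

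Promoters were searched because these factors act through short DNA elements close to the start of their targets. The 250 bases before each RefSeq start (GRCm38.p6) were available for 9 of the 10 genes, and not for Per2. These elements were searched on both strands: the E-box CACGTG, its variant the E'-box CACGTT, the D-box TTATGTAA bound by DBP-type factors, and AGGTCA, the core of the element shared by ROR and REV-ERB receptors. The E-box and the E'-box differ in their last base, so no site counts as both. The Ciart promoter is shown as that of the gene the set was built on, Cry1 as the most abundant of the 10 genes, Per3 and Nr1d1 as the tested genes whose mutant oocytes spread most, and Cipc as a repressor of CLOCK that was called higher in mutants. The matched letters are in capitals, on whichever strand they lie.
Ciart, chr3:95882229-95882478, minus strand: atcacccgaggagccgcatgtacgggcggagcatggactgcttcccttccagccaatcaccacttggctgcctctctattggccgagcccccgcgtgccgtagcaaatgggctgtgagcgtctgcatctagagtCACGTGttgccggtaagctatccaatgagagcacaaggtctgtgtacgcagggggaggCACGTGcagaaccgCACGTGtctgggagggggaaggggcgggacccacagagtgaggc
Cry1, chr10:85185055-85185304, minus strand: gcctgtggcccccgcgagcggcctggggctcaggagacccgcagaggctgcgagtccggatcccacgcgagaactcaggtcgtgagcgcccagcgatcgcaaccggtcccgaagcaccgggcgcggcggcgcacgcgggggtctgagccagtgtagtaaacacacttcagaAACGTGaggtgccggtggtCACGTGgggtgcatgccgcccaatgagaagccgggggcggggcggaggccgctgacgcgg
Per3, chr4:151044666-151044915, minus strand: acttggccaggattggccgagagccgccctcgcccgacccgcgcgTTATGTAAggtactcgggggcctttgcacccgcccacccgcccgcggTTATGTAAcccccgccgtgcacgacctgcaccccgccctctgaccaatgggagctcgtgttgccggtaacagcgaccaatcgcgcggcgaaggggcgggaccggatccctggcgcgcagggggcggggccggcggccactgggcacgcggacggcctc
Nr1d1, chr11:98775378-98775627, minus strand: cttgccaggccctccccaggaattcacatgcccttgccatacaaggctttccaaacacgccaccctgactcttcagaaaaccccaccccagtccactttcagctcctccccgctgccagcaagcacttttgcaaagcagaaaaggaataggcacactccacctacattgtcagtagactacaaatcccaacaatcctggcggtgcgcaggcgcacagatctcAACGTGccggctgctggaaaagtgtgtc
Cipc, the first of 2 starts, chr12:86947093-86947342, plus strand: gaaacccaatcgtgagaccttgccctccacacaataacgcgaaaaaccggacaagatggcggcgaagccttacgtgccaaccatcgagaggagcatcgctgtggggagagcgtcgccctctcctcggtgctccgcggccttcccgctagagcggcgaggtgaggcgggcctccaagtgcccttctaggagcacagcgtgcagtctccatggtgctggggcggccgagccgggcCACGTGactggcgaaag

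The Ciart promoter held 3 E-boxes, whose first bases lay 116, 58 and 44 bases before the start. Of all 32851 promoters of the same length, 6.02% held at least 1 E-box and 0.0609%, or 20 promoters, held at least 3. Cry1 had 1 E-box and 1 E'-box, a letter match that 3.85% of all promoters shared. Per3 had 2 D-boxes, where 0.819% of promoters held at least 1 and 0.0183%, or 6 promoters, held at least 2. Nr1d1 and Cry2 each had 1 E'-box, the first of 2 Per1 starts had 1 E-box and 1 AGGTCA, and Nr1d2 and the third Clock start had 1 AGGTCA, a match found in 14.0% of promoters. Arntl had no match at either of its 2 starts, which says only that these letters are not in these windows.

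**Figure D1:**
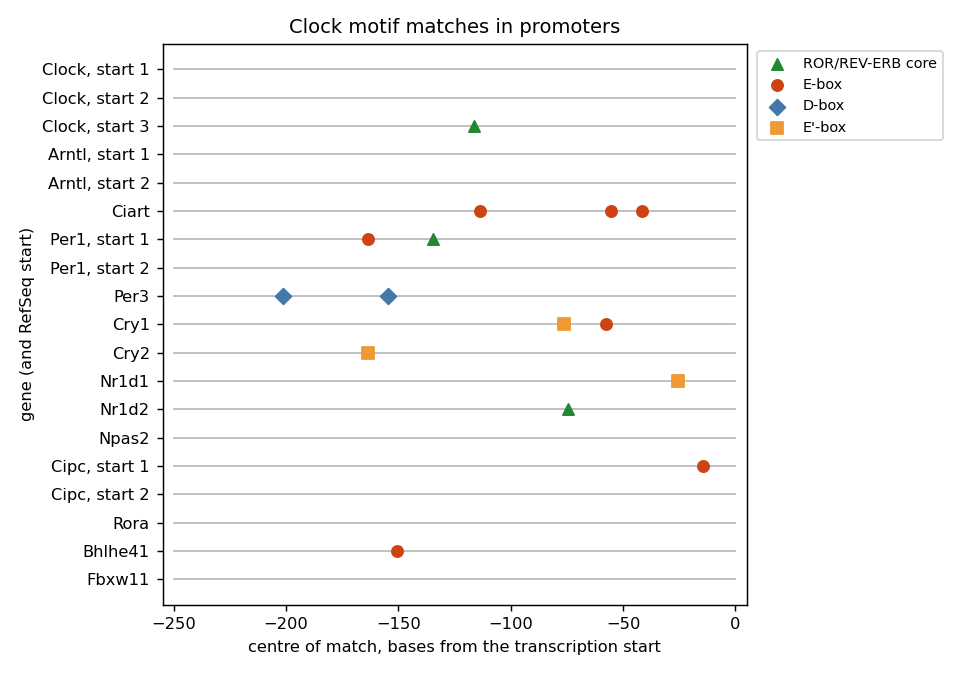
Positions of matches to the E-box, E'-box, D-box and ROR/REV-ERB core in the 250 bases before each RefSeq start, with the distance from the start in bases on the horizontal axis and 1 line per start. Ciart is the only line with 3 E-boxes, and the lines of Arntl, Npas2, Rora and Fbxw11 hold no match.

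Ciart (ENSMUSG00000038550, chr3:95878503-95882251, minus strand) had 1, 2, 1 and 0 counts in wt1, wt3, wt4 and wt5 and 10 in the f/f oocyte. The 5 mutants, in the order given above, had 140, 212, 288, 234 and 84. In CPM over library sizes adjusted by TMM, a scaling of edgeR, the mutants stood at 76.8, 129, 103, 35.6 and 41.9 and the f/f oocyte at 2.22. Every mutant oocyte thus lay far above every control, and the mutants themselves spanned a 3.63-fold range. The mean level was 77.2 CPM ± 39.8 (SD, n = 5) in mutants and 0.809 ± 0.848 (SD, n = 5) in controls, a difference of 5.67 in mean log2 CPM. With 3 counts per oocyte as the floor, the mutant mean was at least 55.9-fold higher than in wt/wt oocytes. Against the f/f oocyte, which had 10 counts, it was 34.8-fold higher. The libraries of a shared mutant name gave like levels, 102.5 and 91.1 CPM in D3 and 34.1 and 31.6 CPM in D4, while those of C3 had 2 and 8 Ciart counts.

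The genes beside Ciart were near 0 or not called. C920021L13Rik, an antisense gene that overlaps Ciart on the other strand without shared exon bases, had 2 counts in all oocytes together. BC028528, 1703 bases away, had 3. Mrps21, 6984 bases away on the other side, encodes a mitochondrial ribosomal protein and had a log2 fold change of -0.45 (SE 0.67, adjusted p = 0.650, edgeR). The 3 genes most like Ciart over the 10 oocytes, by the root-mean-square difference of centred log2 CPM, were Gab1 (0.65), Helz (0.82) and Fxyd6 (0.87). Gab1, a docking protein of receptor tyrosine kinases, stood at 0 to 4.75 CPM in controls and 78.8 to 471.5 CPM in mutants. Among the 9197 other genes tested, Nr1d1 took place 475 in likeness to Ciart, and the other 5 clock genes of the set tested took places 3742 to 7965. Of the other clock genes described further on, Npas2 took place 5 (1.04), Cipc 88 and Hdac3 292. Ciart was chosen on the difference between these same mutant and control oocytes. A place in this order is thus not separate from each gene's own difference between the groups.

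For the other 9 genes, mutant and control oocytes were compared by the quasi-likelihood test of edgeR, with p adjusted by Benjamini-Hochberg over the 9198 genes that passed the filter on total counts. Calls required a change of 1 or more on the log2 scale in either direction and an adjusted p below 0.05. The filter kept 6 of the 9 genes: Clock, Arntl, Per3, Cry1, Nr1d1 and Nr1d2. Of these 2 were called, Nr1d1 higher and Arntl lower, and 4 were not. The filter asks for more than 34 counts over all oocytes together. Nr1d1, with at most 5 counts in any control, passed it only through its mutant counts, so its call is not free of the filter. Over all genes tested 25.9% were called, 14.7% higher and 11.2% lower, so the 2 of 6, or 33.3%, lay near the share over all genes. Scaling by library totals instead of TMM moved the median over all genes by -0.39 on the log2 scale and turned 1353 higher and 1031 lower calls into 963 and 1668, while the same 2 clock genes were called. The median log2 fold change of the 6 was -0.10, beside 0.17 over all genes. In none of the 6 were the mutant and control oocytes separate, beside 16.2% of all genes tested. With only 6 genes, 0 is not far from that share.

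**Figure D2:**
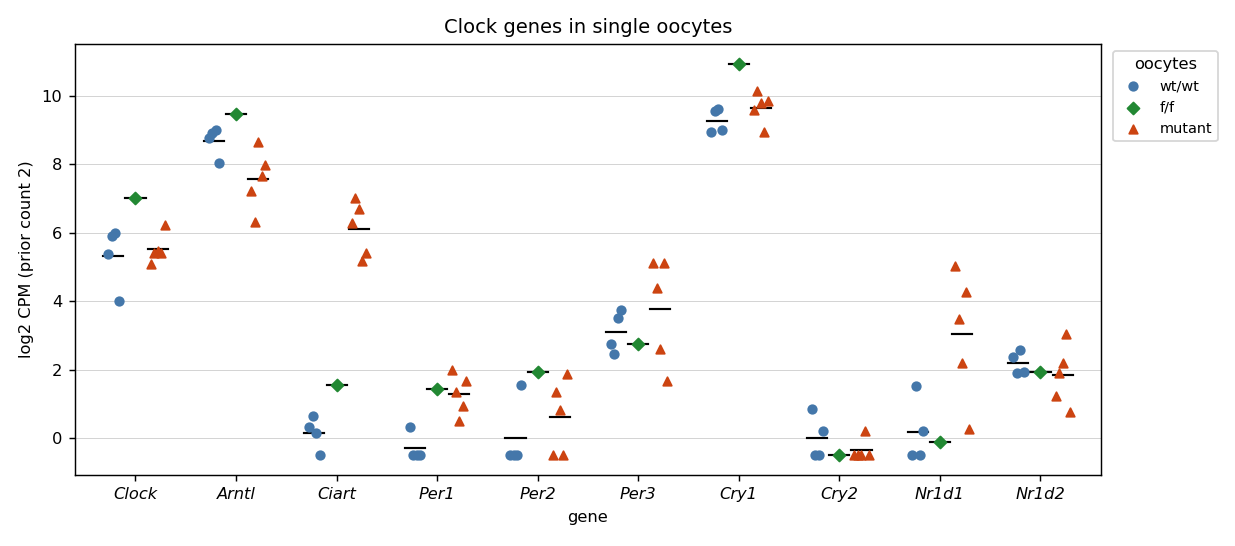
Level of each of the 10 clock genes in every oocyte as log2 CPM with a prior count of 2, by group (circles wt/wt, diamond f/f, triangles mutant; black bars are group means and, for f/f, the single value). Ciart is the gene whose mutant oocytes all lie above its controls, while Cry1, Clock and Nr1d2 overlap.

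Of the activators, Clock (ENSMUSG00000029238) encodes the bHLH-PAS partner of ARNTL and was present in all oocytes. It stood at 40.9, 58.7, 63.4 and 15.3 CPM in wt/wt, 130 in f/f and 33.5, 41.4, 43.4, 42.1 and 74.3 in mutant oocytes. The f/f oocyte was highest and wt5 lowest, with the mutants between them. The log2 fold change was -0.40 (SE 0.46, 95% interval -1.37 to 0.58, adjusted p = 0.554), and against wt/wt oocytes alone it was 0.09.

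Arntl (ENSMUSG00000055116), which encodes the other partner, stood at 437, 476, 514 and 262 CPM in wt/wt oocytes and 713 in the f/f oocyte. The mutants stood at 149, 79.2, 401, 200 and 251. The mutants D1, D2, D4 and D7 lay below every control, and D3 lay among the wt/wt oocytes. The mean was 216 ± 121 (SD, n = 5) in mutants and 481 ± 162 (SD, n = 5) in controls, a log2 fold change of -1.15 (SE 0.42, 95% interval -2.03 to -0.27, adjusted p = 0.04996). The adjusted p sat at the threshold. The call was lost when any of 8 oocytes was left out (wt1, wt3, wt4, C3, D1, D2, D4 or D7), with log2 fold changes of -1.49 to -0.93 over all 10 such fits, and against wt/wt oocytes alone, at -0.96 with adjusted p = 0.0696.

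Of the repressors that act on CLOCK and ARNTL, Cry1 (ENSMUSG00000020038) was the most abundant of the 10 genes in every group. It stood at 494, 745, 777 and 512 CPM in wt/wt, 1959 in f/f and 764, 1117, 874, 487 and 914 in mutant oocytes. The f/f oocyte stood above all others, and the wt/wt and mutant oocytes overlapped. The log2 fold change was -0.11 (SE 0.41, 95% interval -0.97 to 0.75, adjusted p = 0.864), and without C3 it was 0.43 (adjusted p = 0.320).

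Per3 (ENSMUSG00000028957), which encodes a member of the PER family, had 11, 11, 26 and 28 counts in wt/wt, 27 in f/f and 62, 33, 15, 225 and 5 in mutant oocytes. In CPM the controls lay at 4.75 to 12.6, and the mutants at 34.0, 20.1, 5.34, 34.2 and 2.49. D1, D2 and D4 stood above every control, D3 lay among the controls and D7 lay below them. Its log2 fold change was 1.27 (SE 0.63, 95% interval -0.06 to 2.59, adjusted p = 0.144). Camta1 overlaps Per3 on the same strand without shared exon bases, and its log2 fold change was -0.26 (SE 0.44, adjusted p = 0.692).

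Per1, Per2 and Cry2, the other members of these families, were below the filter and were not tested. Per1 (ENSMUSG00000020893) had 1, 0, 0 and 0 counts in wt/wt, 9 in f/f and 6, 3, 2, 8 and 5 in mutant oocytes. Per2 (ENSMUSG00000055866) had 0, 0, 0 and 5 in wt/wt, 14 in f/f and 0, 3, 3, 0 and 6 in mutants. Cry2 (ENSMUSG00000068742) had 2, 0, 0 and 1 in wt/wt, 0 in f/f and 0, 0, 0, 3 and 0 in mutants. The floor of 3 counts stood for 0.456 to 1.83 CPM, and a difference below that level was not detectable. Cry2 did not pass the floor in any oocyte, Per1 passed it in C3, D1, D4 and D7, and Per2 in wt5, C3 and D7. Fitted without a filter, their log2 fold changes were 1.58, -0.05 and -0.79 with adjusted p of 0.322, 0.980 and 0.725 by edgeR.

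The nuclear receptor repressors differed from each other in their values. Nr1d1 (ENSMUSG00000020889, chr11:98767932-98775333, minus strand) had 0, 5, 0 and 1 counts in wt/wt oocytes and 1 in the f/f oocyte. The mutants had 58, 17, 11, 121 and 1, or 31.8, 10.4, 3.92, 18.4 and 0.499 CPM. All mutants but D7, which lay among the controls, stood above every control. The mean was 13.0 CPM ± 12.5 (SD, n = 5) in mutants and 0.566 ± 0.909 (SD, n = 5) in controls, a log2 fold change of 4.45 (SE 1.04, adjusted p = 0.00635, edgeR). The call was kept when each oocyte was left out in turn, with log2 fold changes of 3.84 to 5.91. The 2 libraries of D3 differed here, with 10 and 1 counts, or 5.34 and 0.949 CPM. Those of D4 had 50 and 71 counts, or 13.8 and 20.4 CPM, and those of D7 and C3 had 1 and 0 counts each.

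Nr1d1 shares 263 exon bases with Thra, a thyroid hormone receptor gene on the other strand, and since the strand used in counting is not stated their reads may not be told apart. Thra itself had 0, 0, 1 and 0 counts in wt/wt, 21 in f/f and 2, 4, 10, 17 and 6 in mutant oocytes. It was highest in the f/f oocyte, where Nr1d1 had 1 count, and its log2 fold change was 1.11 (SE 1.02, adjusted p = 0.447).

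Nr1d2 (ENSMUSG00000021775) had 8, 7, 13 and 7 counts in wt/wt, 14 in f/f and 3, 5, 11, 50 and 2 in mutants. In CPM the mutants at 0.997 to 7.60 enclosed the controls at 3.02 to 5.32. Its log2 fold change was -0.08 (SE 0.64, 95% interval -1.44 to 1.28, adjusted p = 0.938).

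Levels of different genes were compared as CPM per kb of exon. In wt/wt oocytes Cry1 at 189 ± 44.9 (SD, n = 4) was followed by Arntl at 56.2 ± 14.8 and Clock at 3.25 ± 1.59. Below them came Per3 at 0.885, Nr1d2 at 0.735, Nr1d1 at 0.212, Ciart at 0.202, Per2 at 0.0958, Cry2 at 0.0615 and Per1 at 0.0245. Cry1 and Arntl did not overlap with each other or with Clock, while every neighbouring pair from Clock downward overlapped. This depends on the length used. With exon length held to at most 3 kb, Cry1 at 164.5 to 259 and Arntl at 87.5 to 171.3 overlapped. Clock at 5.08 to 21.1 and Per3 at 1.58 to 4.19 then did not. In the f/f oocyte the order of the first 3 was the same, at 587, 94.8 and 9.44.

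In mutant oocytes Cry1 stood at 249 ± 69.2 CPM per kb (SD, n = 5), and Ciart at 34.1 ± 17.6 came next to Arntl at 28.7 ± 16.1. Ciart and Arntl overlapped, and their order turned, with Arntl at 72.0, when exon length was held to the 3 kb that the poly(A)-primed cDNA reaches. Nr1d1 at 4.22, Clock at 3.42, Per3 at 2.00 and Nr1d2 at 0.636 followed, with overlap between each neighbouring pair. Held to 3 kb their order became Clock at 15.7, Per3 at 6.41, Nr1d1 at 4.33 and Nr1d2 at 1.15. Per1 at 0.339, Per2 at 0.201 and Cry2 at 0.0144 closed the order.

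Ratios of counts within an oocyte do not depend on the scaling between oocytes. Cry1 made up 50.1% to 79.6% of the counts of the 10 genes in each oocyte. The share of Ciart was 0 to 0.0669% in wt/wt, 0.0788% in the f/f oocyte and, in mutant oocytes, 3.24% to 9.20%. The ratio of Cry1 to Arntl counts was 1.13, 1.57, 1.51 and 1.95 in wt/wt, 2.75 in f/f and 5.12, 14.1, 2.18, 2.43 and 3.64 in mutant oocytes. All mutants lay above all wt/wt oocytes, and the f/f oocyte lay within the mutant range.

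**Figure D3:**
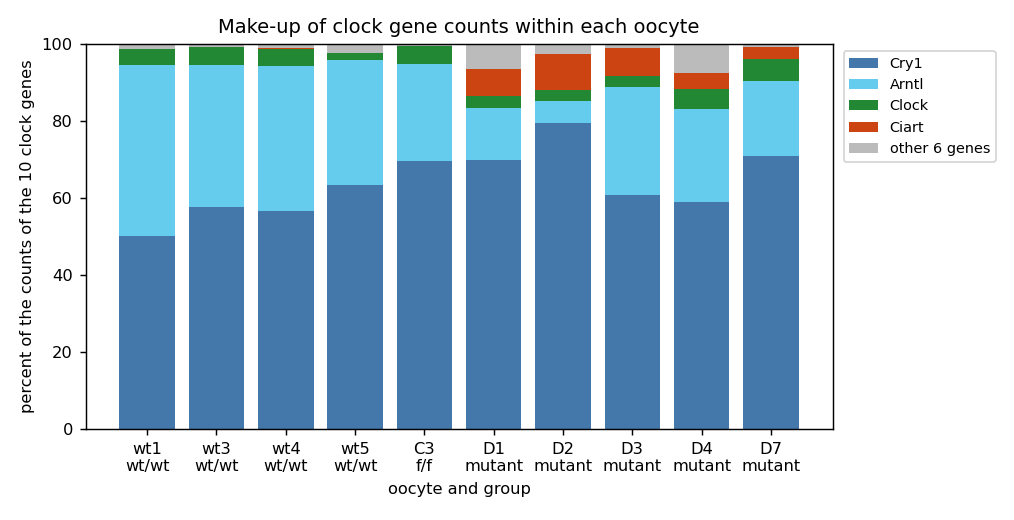
Share of each gene in the summed counts of the 10 clock genes, in percent, with 1 bar per oocyte. Cry1 takes 50.1% to 79.6% in each bar, and Ciart is visible in the mutant bars at 3.24% to 9.20%.

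A further 40 genes of the clock machinery, from partners and receptors to kinases and cofactors, gave the context of the pathway. Of these 27 were tested and 7 were called, 3 higher and 4 lower, or 25.9%, the same share as over all genes. Their median log2 fold change was 0.06. In 6 of the 27, or 22.2%, the mutant and control oocytes did not overlap, beside 16.2% of all genes tested. None of 8 kinases tested was called by edgeR, DESeq2 or limma voom, with 2 at an unadjusted p under 0.05 by edgeR, 1 by DESeq2 and 3 by voom. The casein kinases Csnk1a1, Csnk1d and Csnk1e, which phosphorylate PER proteins, had log2 fold changes of 0.43, 0.51 and 0.77. Without C3, that is with wt/wt oocytes alone as control, 10 of the 27 were called, beside 31.5% of all genes tested in that fit, and the additional genes were the kinase subunit Csnk2a1, the deubiquitinase Usp2 and Timeless, all higher, with log2 fold changes of 1.13, 1.61 and 1.87 (adjusted p = 0.0156, 0.0196 and 0.0192, edgeR). Without wt4, D1 or D2, 4 were called. Over all genes those fits called 1718 of 9176, 1607 of 9141 and 1942 of 9190, also fewer than with all oocytes.

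**Figure D4:**
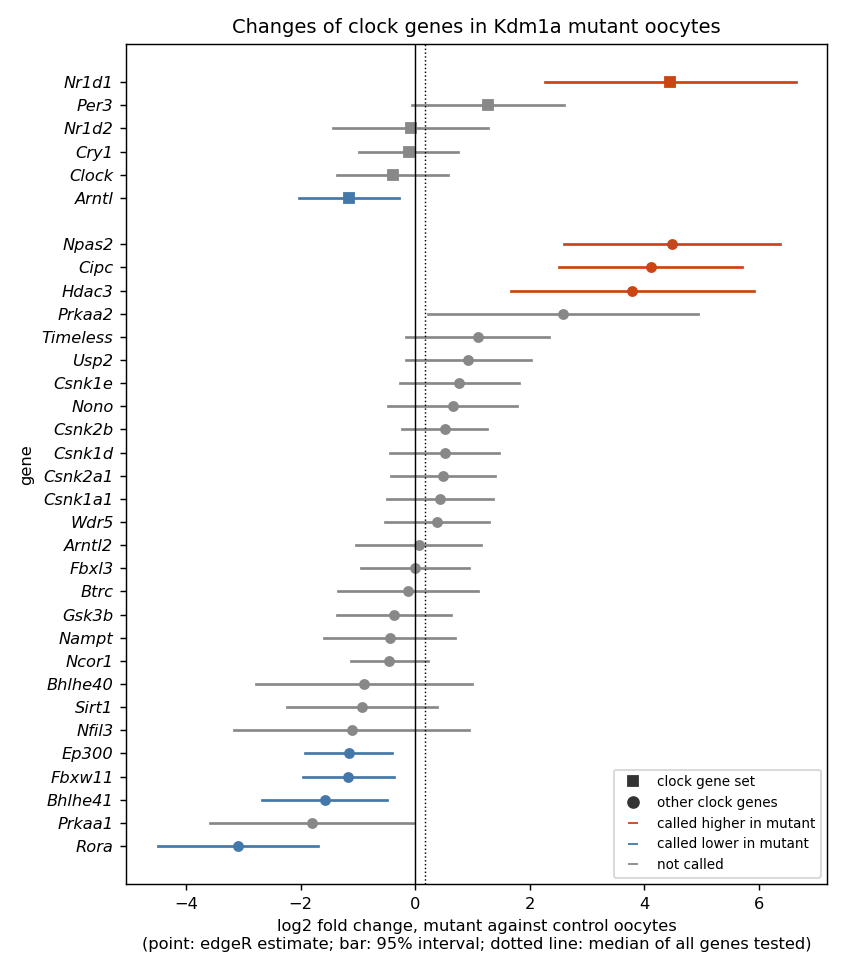
Change between mutant and control oocytes on the log2 scale with its 95% interval for the 6 tested clock genes other than Ciart (squares) and 27 other clock genes (circles), with called genes coloured; the dotted line is the median of all genes tested at 0.17. Nr1d1, Npas2, Cipc and Hdac3 lie to the right, Rora to the left, and most intervals cross 0.

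Npas2, a paralogue of Clock that also pairs with ARNTL, was called higher. It had 0, 0, 0 and 1 counts in wt/wt, 37 in f/f and 75, 49, 174, 408 and 79 in mutant oocytes. All mutants, at 29.9 to 62.1 CPM, stood above the f/f oocyte at 8.21, which stood above wt/wt. Its log2 fold change was 4.48 (SE 0.89, adjusted p = 0.00266, edgeR). With 3 counts per oocyte as the floor the mutant mean was at least 33.9-fold higher than in wt/wt, and it was 5.71-fold higher than in f/f. The ratio of Npas2 to Clock counts was 0 to 0.0294 in wt/wt, 0.0634 in f/f and 0.530 to 1.47 in mutants.

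Cipc, a CLOCK-interacting repressor, had 3, 0, 0 and 4 counts in wt/wt, 5 in f/f and 36, 29, 31, 165 and 15 in mutant oocytes. The f/f oocyte lay among wt/wt, and all mutants, at 7.48 to 25.1 CPM, lay above. Its log2 fold change was 4.11 (SE 0.75, adjusted p = 0.00162, edgeR). Hdac3, the histone deacetylase that acts with NCOR1 and the REV-ERBs, had 0 counts in each wt/wt oocyte, 4 in f/f and 8, 7, 5, 18 and 14 in mutants. Its mutant mean was at least 2.92-fold higher than wt/wt, and its log2 fold change was 3.79 (SE 1.00, adjusted p = 0.0128, edgeR). Cipc and Hdac3, with at most 5 and 4 counts in any control, passed the filter only through their mutant counts, so their calls are not free of it.

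Rora, the nuclear receptor that opposes the REV-ERBs, had 35, 68, 50 and 37 counts in wt/wt, 31 in f/f and 10, 1, 9, 7 and 1 in mutant oocytes. In CPM the wt/wt oocytes stood at 16.6 to 29.3, f/f at 6.88 and the mutants at 0.499 to 5.48, so that the f/f oocyte lay between the groups. The log2 fold change was -3.09 (SE 0.66, adjusted p = 0.00406, edgeR).

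The other lower genes were nearer to the f/f oocyte. Bhlhe41 (DEC2), an E-box repressor, stood at 21.5 to 38.7 CPM in wt/wt, 7.99 in f/f and 3.04 to 14.6 in mutants, with a log2 fold change of -1.58 (SE 0.52, adjusted p = 0.0338, edgeR). Fbxw11, a ubiquitin ligase subunit that targets PER proteins, stood at 82.0 to 152.5 CPM in wt/wt, 41.7 in f/f and 29.9 to 55.9 in mutants (log2 fold change -1.17, SE 0.38, adjusted p = 0.0317). For both, the f/f oocyte lay within the mutant range, and with C3 as the only control the log2 fold changes were 0.19 and -0.004. Ep300, a histone acetyltransferase that acts with CLOCK and ARNTL, stood at 39.8 to 72.5 CPM in wt/wt, 39.7 in f/f and 17.7 to 32.5 in mutants, so that every mutant lay below (log2 fold change -1.16, SE 0.36, adjusted p = 0.0270). Leaving out 1 oocyte ended the call of Bhlhe41 in 7 of 10 fits (wt1, wt3, wt4, D1, D2, D4 or D7), of Fbxw11 in 6 (wt1, wt4, wt5, D1, D2 or D7) and of Ep300 in 4 (wt3, wt4, D1 or D2), with adjusted p of up to 0.0809, 0.0858 and 0.0620 by edgeR. Over these 10 fits their log2 fold changes were -1.81 to -1.33, -1.36 to -0.88 and -1.28 to -1.06. In none of the 10 fits was the call of Npas2, Cipc, Hdac3 or Rora lost, but without C3 the fitted log2 fold change of Npas2 moved from 4.48 to 8.19 and that of Hdac3 from 3.79 to 6.42; with wt/wt counts at or near 0, these fitted values are no bounds.

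**Figure D5:**
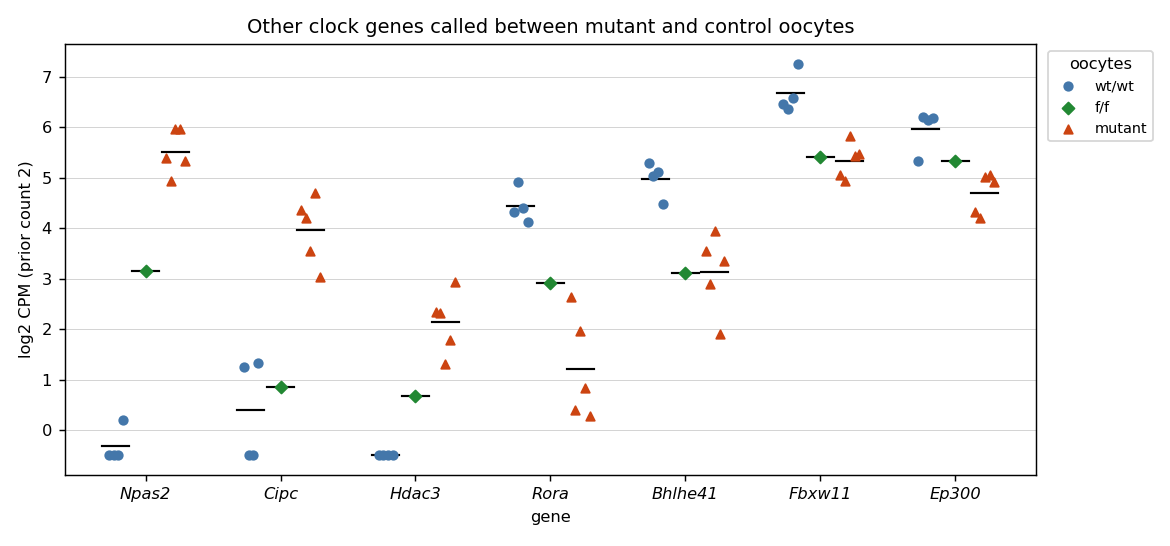
Log2 CPM (prior count 2) in every oocyte of the 7 called genes among the other clock genes, by group (circles wt/wt, diamond f/f, triangles mutant; black bars are group means and, for f/f, the single value). The f/f oocyte lies beside wt/wt for Cipc, between wt/wt and mutant oocytes for Npas2, Hdac3 and Rora, and within the mutant range for Bhlhe41 and Fbxw11.

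The D-box factors and their opponent were scarce. Dbp, Tef and Hlf, targets of CLOCK and ARNTL in rhythmic tissues, were below the filter. Nfil3, which binds D-boxes as a repressor, had a log2 fold change of -1.11 (SE 0.97, adjusted p = 0.418), and Nampt, a clock-controlled enzyme of NAD synthesis, of -0.45 (SE 0.55, adjusted p = 0.574).

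Genes that share the E-box with Ciart were counted over the whole table. Ciart itself, chosen on this contrast, was left out of these counts. Of 721 tested genes with at least 1 E-box in a promoter, 180 were called (25.0%), 103 higher and 77 lower, with a median log2 fold change of 0.14. Of all 7032 tested genes with a promoter, 25.8% were called, with a median of 0.16. Of the 8 tested genes with 3 or more E-boxes, 1 was called, Ube2b, a ubiquitin-conjugating enzyme with a log2 fold change of 1.88 (SE 0.68, adjusted p = 0.0494, edgeR). The other 7 had log2 fold changes of -0.75 to 1.35.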

How the data were processed

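Single-oocyte cDNA was primed from poly(A) and reaches about 3 kb into a transcript from its 3' end. The deposited values are raw counts per RefSeq gene, without normalization. The authors filtered the reads, aligned them to mm10 and counted unique alignments; the submitters' processing notes name TopHat2 2.0.6, HTSeq 0.5.3p9, R 3.2.0 and DESeq2 1.4.5. The strand used in counting is not given in the sources used here.

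The 14 oocyte libraries were grouped by their labels, and the libraries of each of the 4 shared names were summed, giving 5 control (4 wt/wt, 1 f/f) and 5 mutant oocytes. A column whose name swaps the letters of OoC3-DNA was read as that library. The libraries of two-cell embryos were not analysed here. Genes with a count in the top 60% by total count, 9198 of 15432, were kept, following the study. Mutant and control oocytes were compared with edgeR 4.0.16 in R 4.3.3 (TMM, quasi-likelihood, genotype as the only term). SE is the absolute log2 fold change over the square root of F. CPM is over TMM-adjusted sizes of the kept genes, and log2 CPM was computed with 2 as the prior count. For a group with at most 3 counts per oocyte, a fold is a lower bound against 3 counts. Bounds and intervals cover counting error or spread between oocytes only, since reads carried no molecular identifiers. Gene lengths and positions came from GENCODE vM21 (GRCm38, which is mm10), with 22787 of 24064 genes matched by name. Promoters were RefSeq, GRCm38.p6, matched for 9 of 10 clock genes and 31 of 40 others.

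The clock genes, the lists and the tests were chosen with earlier results of these data known. The genes named were the 10 clock genes, called genes of the pathway list, overlapping and neighbouring genes, the 3 genes most like Ciart, and Kdm1a; the kinases, Usp2, Timeless, Nfil3, Nampt, Ube2b and the markers were added to these with their values known. The values of 1 gene of the pathway list are not reported here. The procedure was tested on simulated counts. Alternatives were DESeq2 1.42.0, limma 3.58.1 voom with quality weights, scaling by upper quartile or by library totals, no filter, filterByExpr, adjusted p alone, every library as its own sample with and without a block, 1 library per oocyte, either control alone, thinned counts, and leaving out each oocyte.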

Additional observations from a re-analysis of the deposited data

Results flagged for a closer look

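Among 34 sets of 5 oocytes examined by Dixon's ratio of the gap to the range, on log2 CPM, 3 exceeded 0.71, the 95% critical value for 5 values. About 1 in 20 sets, here 1.7, would do so by chance if no values were tied. The f/f oocyte C3 stood above the 4 wt/wt oocytes for Npas2 (ratio 0.807; 37 counts against at most 1) and for Hdac3 (ratio 1; 4 counts against 0). For Cry2 the mutant D4 stood above the other mutants (ratio 1, with 3 counts against 0). In the Hdac3 and Cry2 sets all other values were tied at 0 counts. Such ties fix the ratio at 1, so the critical value does not apply to these sets. C3 and D4 hold the most counts of all oocytes, 6928548 and 6926076. The part of depth and strain in these values was not tested.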

How the results depend on the processing

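The 9 clock genes other than Ciart had 2 calls (Arntl and Nr1d1), and 1 under filterByExpr (where Nr1d1 was not tested), with the replicate block or with wt/wt oocytes alone as control, 0 with the f/f oocyte alone (edgeR; 4 at an unadjusted p under 0.05), and 1 to 2 when each oocyte was left out. The 7 calls among other clock genes became 8 with every library as its own sample and 3 with the replicate block added to that form. With oocytes left out they were 4 to 10 (4 without wt4, D1 or D2, and 10 without C3, the same fit as wt/wt oocytes alone). They were 6 with no filter, with 1 library per oocyte and with thinned counts, and 5 under filterByExpr, where Hdac3 and Rora were not tested, and 8 with voom (Usp2 gained) and with every library as its own sample (Prkaa2, an AMPK subunit, gained). Calls were lost for Ep300 with no filter (adjusted p = 0.0527, edgeR) and thinned counts (0.0511), for Fbxw11 with thinned counts (0.0905) and for Bhlhe41 with 1 library per oocyte (0.0599). With thinned counts Prkaa1, another AMPK subunit, gained a call (-2.93, adjusted p = 0.0407, edgeR) and the fitted log2 fold change of Npas2 was 7.73. Over all genes 2384 calls became 2885 with every library as its own sample and 966 with the replicate block added to that form. They were 1607 to 2885 with oocytes left out. With C3 as the only control, a lone sample assumed to vary like the mutants, no clock gene was called. The Ciart difference of 5.67 in mean log2 CPM was 6.58 with a prior count of 0.5 and 5.49 to 5.92 with oocytes left out. Uncalled log2 fold changes turned direction for Clock (0.094 with wt/wt oocytes alone; -0.62 to 0.094 with oocytes left out), for Cry1 (0.33 with voom, 0.15 with the replicate block, 0.43 with wt/wt oocytes alone; -0.27 to 0.43 with oocytes left out) and for Nr1d2 (0.069 with every library as its own sample, 0.22 with f/f alone; -0.62 to 0.16 with oocytes left out). Bhlhe41 turned to 0.19 with f/f alone. With the replicate block, calls were lost for Rora (-2.40, adjusted p = 0.0983, edgeR), Arntl (-1.15), Bhlhe41 (-0.81), Fbxw11 (-1.08) and Hdac3 (4.22). Their log2 fold changes in the main fit on summed oocytes were -3.09, -1.15, -1.58, -1.17 and 3.79. With every library as its own sample and no block, all of these calls were kept. The block was the number in the label. Number 1 held only control libraries and numbers 6 to 9 only mutant libraries, so these blocks gave the contrast no information. How far this accounts for the lost calls was not tested. The numbers in the labels count libraries, and the deviations of same-numbered wt/wt and mutant libraries correlated at 0.08, 0.10 and -0.09, so they pair no samples. With exon length held to 3 kb, levels per kb rose to 140.8 for Arntl, 14.9 for Clock, 2.83 for Per3 and 1.32 for Nr1d2 in wt/wt, and to 72.0, 15.7, 6.41 and 1.15 in mutants, with 0.636 for Per1. Depth limits Per1, Per2 and Cry2, which had 6 to 34 counts over all oocytes.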
